A study of Mus musculus with 2 samples.

Results

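The megakaryocyte and platelet genes are a set of 9 named genes: Pf4, Ppbp, Itga2b, Gp1ba, Gp1bb, Gp5, Gp9, Tubb1 and Treml1. They were chosen by symbol, and all 9 were found among the 43346 genes with an Ensembl identifier in the deposited tables. The RNA, selected for poly(A) tails, was from whole spleen. The donor was a single adult male of strain C57BL/6J at 10 weeks, with no treatment in the labels. The material went into 2 RNA-seq libraries, technical replicate 2, which was performed in 2015, and technical replicate 1. Both have the labelled size range of 350 to 450, given without a unit. The comparison of technical replicate 2 with technical replicate 1 asks how far a second library from the same organ gives the same levels. No spread between replicates and no p-value can be given for a single library a side, and the intervals cover counting error only. No treatment or genotype separates the libraries, so a difference between them is a difference between libraries of 1 animal.

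Megakaryocytes are large polyploid cells that extend long processes and shed platelets from them. Platelets have no nucleus but carry RNA inherited from the megakaryocyte. In the mouse, the red pulp of the spleen holds megakaryocytes throughout adult life, and the spleen also stores platelets. Platelets hold to the vessel wall through the glycoprotein Ib-IX-V complex, which binds von Willebrand factor, and to each other through integrin αIIbβ3, which binds fibrinogen. On activation they release chemokines from their alpha granules. In bulk tissue, fewer cells of a type and less RNA per cell cannot be told apart, and platelet RNA cannot be told apart from megakaryocyte RNA.

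Technical replicate 2 held 3806385 counts on genes and technical replicate 1 held 27528810, a depth ratio of 7.23 between technical replicate 1 and technical replicate 2. Both libraries carried the markers of spleen, with all 4 B cell genes of a marker list at 1 TPM or more in each. TPM is the share of a library's transcripts after correction for length. Erythroid transcripts took up far more of technical replicate 2, where 10 such genes summed to 442748 TPM, against 43149 TPM in technical replicate 1. Because TPM sums to the same total in each library, this lowers the TPM of every other gene in technical replicate 2. Library sizes were therefore also scaled by TMM, a trimmed mean of gene ratios. A difference was called where the entire 95% interval of the scaled count ratio lay past 1.5-fold. By this rule 60.6% of the 12467 tested genes were called, 28.0% higher and 32.6% lower in technical replicate 2.

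Transcripts of megakaryocytes and platelets were present in both libraries, with a different make-up. The 9 genes summed to 177.0 TPM in technical replicate 2 and 136.5 TPM in technical replicate 1. These sums were 0.0177% and 0.0136% of all transcripts in technical replicate 2 and in technical replicate 1. Which sum was higher depended on the measure. Without globin and mitochondrially encoded genes in the total the sums were 319.6 TPM in technical replicate 2 and 160.4 TPM in technical replicate 1. With every Itga2b count on its full-length transcript, an alternative chosen after seeing the data, they were 96.5 TPM in technical replicate 2 and 135.9 TPM in technical replicate 1. In technical replicate 2, 667 counts (0.0175% of all) fell on 7 of the 9 genes, and Gp1ba and Tubb1 had none. In technical replicate 1, 2359 counts (0.00857% of all) fell on all 9. Itga2b held 56.2% of the summed TPM in technical replicate 2, whereas Ppbp held 65.9% in technical replicate 1. Spearman's correlation of the TPM values between the libraries was 0.24 over the 9 genes, as a description, beside 0.51 over the 12467 tested genes.

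The order of the 9 genes by TPM, which is a level per length, differed between the libraries. In technical replicate 2 Itga2b came first and Pf4 second, and the 95% intervals of these neighbours did not overlap. The first place of Itga2b rests on how its counts were divided between transcripts, since on its full-length transcript alone they would give 19.0 TPM, below Pf4. Treml1, Gp9, Ppbp, Gp1bb and Gp5 followed between 6.12 and 2.73 TPM, each with an interval that overlapped the next. In technical replicate 1 Ppbp came first, followed by Pf4 and Tubb1, all with counting intervals apart from their neighbours. Itga2b, Treml1, Gp1ba, Gp5, Gp9 and Gp1bb followed between 3.51 and 0.42 TPM, each overlapping the next. The places of Tubb1 and Itga2b there are less certain by the deposited posterior means. These were 6.03 TPM for Tubb1 (deposited interval 5.07 to 7.02) and 5.59 TPM for Itga2b (3.85 to 7.60), which overlap. Pf4 was the only gene among the first 2 of the 9 in both libraries.

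**Figure D1:**
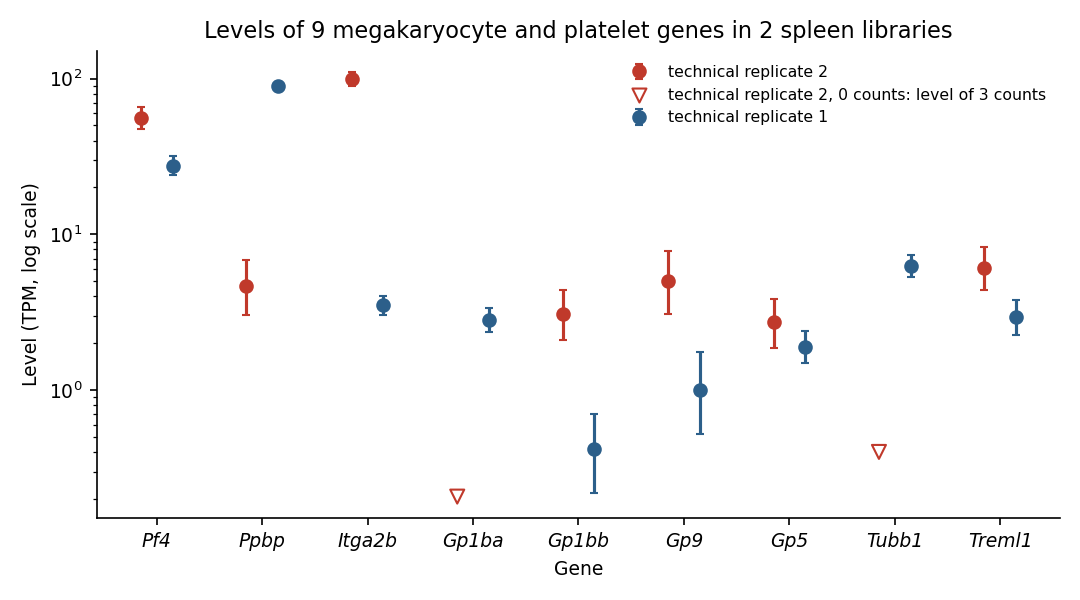
Level of each of the 9 genes in TPM (log axis) in technical replicate 2 and technical replicate 1, with bars for the exact 95% counting interval and triangles at the value that 3 counts would have for a gene with none. Itga2b and Pf4 stand highest in technical replicate 2, Ppbp and Pf4 in technical replicate 1, and Gp1ba and Tubb1 have no counts in technical replicate 2.

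Pf4 and Ppbp encode the main chemokines of platelet alpha granules, platelet factor 4 (CXCL4) and pro-platelet basic protein, the precursor of CXCL7. They are neighbours on the plus strand of chromosome 5 of mm10, Ppbp at chr5:90768518-90770063 and Pf4 at chr5:90772435-90773383, 2371 bases apart. Pf4 had 148 counts and 55.84 TPM (95% interval 47.2 to 65.6) in technical replicate 2, against 209 counts and 27.65 TPM (24.0 to 31.7) in technical replicate 1. Pf4 was called higher in technical replicate 2, with a log2 ratio of scaled counts of 3.62 (3.31 to 3.93). Ppbp had 26 counts and 4.68 TPM (3.06 to 6.86) in technical replicate 2, against 1530 counts and 89.92 TPM (85.5 to 94.5) in technical replicate 1. Ppbp was called lower in technical replicate 2, with a log2 ratio of -1.76 (-2.38 to -1.21). Each gene had 1 transcript of 3 exons in the tables, so no division of reads between transcripts enters these values.

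The balance of the 2 chemokines does not depend on how the libraries are scaled. Ppbp had 0.0838 times the TPM of Pf4 in technical replicate 2 and 3.25 times the TPM of Pf4 in technical replicate 1. By counts, the ratio of Pf4 to Ppbp was 41.5 times larger in technical replicate 2 than in technical replicate 1 (95% interval 26.5 to 67.3). Among all genes above 0 TPM, Pf4 ranked 926 in technical replicate 2 and 4943 in technical replicate 1, and Ppbp ranked 5164 in technical replicate 2 and 1505 in technical replicate 1. The transcripts of Pf4 and Ppbp have GC contents of 50% and 42.4%.

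Itga2b encodes integrin αIIb (CD41), which pairs with integrin β3 to form the fibrinogen receptor of platelets. It lies at chr11:102453297-102470122 on the minus strand. Itga2b had 369 counts and 99.53 TPM (89.6 to 110.2) in technical replicate 2, against 185 counts and 3.51 TPM (3.02 to 4.05) in technical replicate 1. The unscaled count was thus higher in the shallower library. The deposited posterior mean of Itga2b was 92.85 TPM in technical replicate 2 and 5.59 TPM (deposited interval 3.85 to 7.60) in technical replicate 1. The value of 5.59 TPM lies above the counting interval, which does not cover the division of reads between transcripts. Itga2b was called higher in technical replicate 2, with a log2 ratio of 5.11 (4.85 to 5.38), a 34.6-fold difference in scaled counts. Its TPM rank was 563 in technical replicate 2 and 11367 in technical replicate 1. Relative to Pf4, the ratio of Itga2b counts was 2.81 times larger in technical replicate 2 than in technical replicate 1 (2.12 to 3.74).

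Itga2b was the gene whose transcripts were assigned differently, and 10 of its transcripts are in the tables. Itga2b-207, a short transcript of 623 bases and 3 exons that is annotated as processed and carries no coding sequence, took 270.93 counts in technical replicate 2 and 0 in technical replicate 1. Itga2b-201, the full-length coding transcript of 3437 bases and 30 exons, took 98.07 counts in technical replicate 2 and 154.94 in technical replicate 1. The first exon of Itga2b-207 is shown because it holds the only bases that set this transcript apart from Itga2b-201. It is exon 28 of Itga2b-201 with 190 bases of the intron before it, at chr11:102455899-102456190 on the minus strand of GRCm38, the assembly that mm10 names. It was read from the GENCODE M21 transcript sequences. Capitals mark the 190 bases of intron.
Itga2b-207 first exon: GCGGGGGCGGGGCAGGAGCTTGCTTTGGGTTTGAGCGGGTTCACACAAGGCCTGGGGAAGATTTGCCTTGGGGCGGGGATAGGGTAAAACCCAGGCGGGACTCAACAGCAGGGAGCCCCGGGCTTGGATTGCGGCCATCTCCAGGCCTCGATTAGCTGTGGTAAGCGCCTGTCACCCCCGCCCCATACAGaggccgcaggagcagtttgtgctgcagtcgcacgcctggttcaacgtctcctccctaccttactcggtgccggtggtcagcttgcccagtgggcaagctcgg
The capital stretch lies at chr11:102456001-102456190 and has a GC content of 64.2%. The other 433 bases of Itga2b-207, 69.5% of its length, are shared with the last 3 exons of Itga2b-201. The tables give no coverage by base, so counts on the 190 bases cannot be told apart from counts on the shared bases.

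By the deposited isoform percentage, the share of the gene's TPM held by a transcript, Itga2b-207 held 94.92% in technical replicate 2 and 0% in technical replicate 1. Itga2b-201 held 5.08% in technical replicate 2 and 71.11% in technical replicate 1. As a share of the gene's counts, Itga2b-207 had 73.4% in technical replicate 2 (exact Clopper-Pearson 95% interval 68.6% to 77.9%). In technical replicate 1 it had 0 of 185 counts, which allows a share of up to 1.62% at 3 counts and of up to 1.97% by the exact interval. Itga2b-209, a non-coding transcript of 2880 bases and 21 exons, held 14.87% of the TPM in technical replicate 1 and none in technical replicate 2. The posterior mean estimates in the same tables gave Itga2b-207 a share of 91.02% in technical replicate 2 and 4.79% in technical replicate 1. They gave Itga2b-201 a share of 4.68% in technical replicate 2 and 40.71% in technical replicate 1.

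The level of Itga2b rests on this assignment, because the same count on a shorter transcript gives a higher TPM. With every Itga2b count placed on the full-length transcript, the level would be 19.0 TPM in technical replicate 2 and 2.98 TPM in technical replicate 1. Itga2b-201 alone had 5.06 TPM in technical replicate 2 and 2.49 TPM in technical replicate 1. On coding transcripts alone the log2 ratio of Itga2b counts was 3.46, and the gene was still called higher in technical replicate 2. The effective length of transcripts was 134.57 bases below the full length in technical replicate 2 and 191.06 bases below it in technical replicate 1, which also enters the TPM of short transcripts. A change of dominant transcript was common in these libraries, at 42.8% of the 8561 tested genes that could be compared. Of the 2 genes of the set with several transcripts and counts in both libraries, Itga2b changed and Gp1bb did not.

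**Figure D2:**
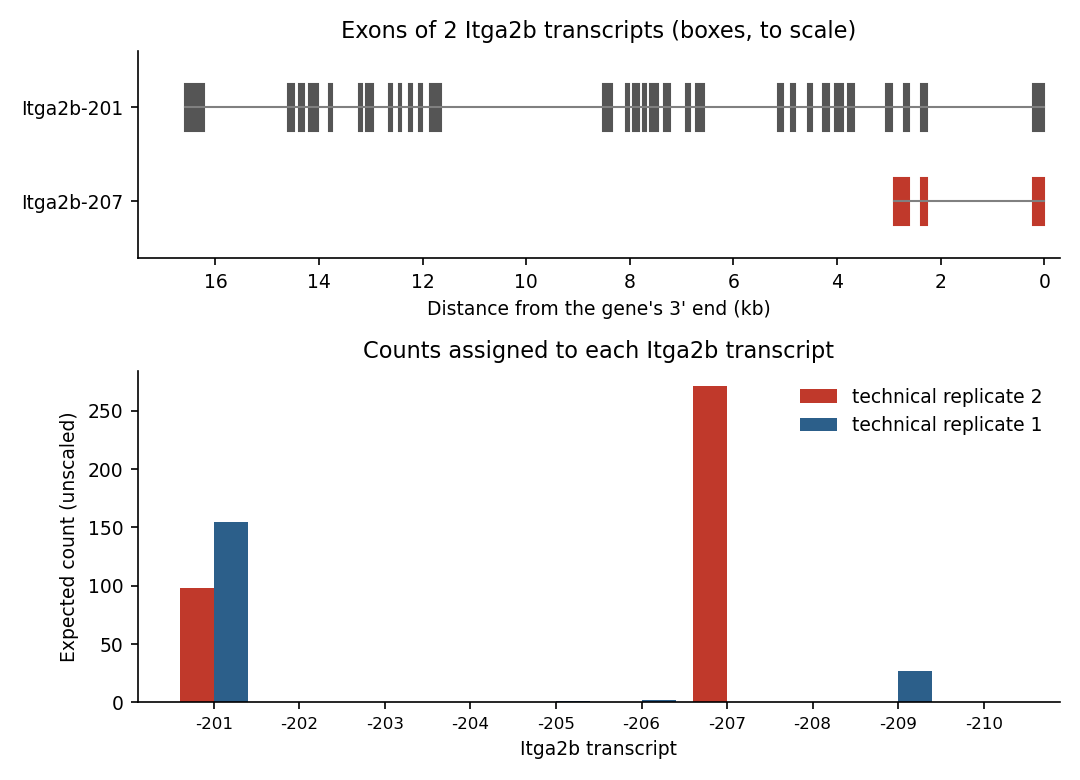
Upper panel, exons of Itga2b-201 and Itga2b-207 (boxes) by distance in kb from the 3′ end of the gene. Lower panel, unscaled expected counts (bars) of the 10 Itga2b transcripts in technical replicate 2 and technical replicate 1. Itga2b-207 covers the last 3 exons and holds 270.93 counts in technical replicate 2 and 0 in technical replicate 1.

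Itgb3, which encodes the integrin β3 partner of αIIb and belongs to the surface receptor list, had a smaller ratio than Itga2b. It had 200 counts and 6.03 TPM in technical replicate 2, against 1967 counts and 18.39 TPM in technical replicate 1. Its log2 ratio was 0.82 (0.60 to 1.03), which was called higher under TMM scaling and not called under total count scaling. In technical replicate 2 the TPM of Itga2b was above that of Itgb3, and in technical replicate 1 it was below.

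Gp1ba, Gp1bb, Gp9 and Gp5 encode the 4 chains of the glycoprotein Ib-IX-V complex, and their values did not move together. Gp1ba, the chain that binds von Willebrand factor, lies at chr11:70639122-70642036 on the plus strand. It had 0 counts and 0 TPM in technical replicate 2, against 131 counts and 2.82 TPM in technical replicate 1. Given the level in technical replicate 1, technical replicate 2 would have held 7.55 counts under TMM scaling and 18.1 under total count scaling. By the 95% interval, Gp1ba was at least 2.02-fold lower in technical replicate 2 under TMM scaling and at least 4.84-fold lower under total count scaling. Set at 3 counts, or 0.208 TPM, it would be 2.52-fold and 6.04-fold lower under these scalings. It was called lower, but the call was lost with a 99% interval. In technical replicate 1 its counts were divided between Gp1ba-201 (58.30% of the TPM) and Gp1ba-202 (41.70%), which share the same coding sequence.

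Gp1bb, the chain linked to Gp1ba by disulfide bonds, lies at chr16:18620317-18622403 on the minus strand. It had 31 counts and 3.08 TPM (2.09 to 4.38) in technical replicate 2, against 13 counts and 0.42 TPM (0.22 to 0.70) in technical replicate 1. Gp9, at chr6:87778072-87779768 on the plus strand, encodes glycoprotein IX, which stabilizes the complex. It had 20 counts and 5.04 TPM (3.08 to 7.78) in technical replicate 2, against 12 counts and 1.01 TPM (0.52 to 1.77) in technical replicate 1. Both genes had fewer than 50 counts over the libraries and were not tested. Without that filter their log2 ratios were 5.37 (4.39 to 6.43) for Gp1bb and 4.85 (3.75 to 6.02) for Gp9, and both would be called higher, beside 42.5% of the 20488 genes with a count called in either direction and 22.3% called higher. Gp1bb overlaps Sept5 on the same strand, which had 0 counts in technical replicate 2 and 31 in technical replicate 1. The division of reads between Gp1bb and Sept5 is uncertain, and counted together with the genes that overlap it, Gp1bb had a log2 ratio of 3.61.

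Gp5, at chr16:30307685-30310779 on the minus strand, encodes glycoprotein V, a thrombin substrate. It had 33 counts and 2.73 TPM (1.88 to 3.83) in technical replicate 2, against 73 counts and 1.90 TPM (1.49 to 2.39) in technical replicate 1. It was called higher in technical replicate 2, with a log2 ratio of 2.97 (2.33 to 3.58). The TPM intervals of the 2 libraries overlapped, and as a ratio of TPM with a pseudocount of 1 the log2 value was 0.36, which was not called.

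Ratios between the chains, which need no scaling of the libraries, differed as well. Gp1ba had 0 times the TPM of Gp5 in technical replicate 2 and 1.48 times in technical replicate 1. By counts, the upper 95% bound of the ratio of Gp1ba to Gp5 in technical replicate 2 was 0.0692 of the ratio in technical replicate 1. The ratio of Gp1bb to Gp5 counts was 5.21 times larger in technical replicate 2 than in technical replicate 1 (2.31 to 12.4), and that of Gp9 to Gp5 was 3.65 times larger (1.5 to 9.24). The ratio of Gp9 to Gp1bb was 0.70 times as large (0.24 to 2.06), an interval that includes 1. The counts of 12 and 13 in technical replicate 1 limit how closely these chains can be compared.

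The promoters of Gp1ba, Gp5 and Gp9 are shown because they are the only ones of the 9 with the letters GATAA. GATA1 and other GATA factors bind sites with this core in megakaryocytes. Each sequence is the 250 bases before the gene's start from RefSeq (GRCm38.p6), read on the gene's strand. Capitals mark GATAA and its reverse complement TTATC. The positions are chr11:70638872-70639121 (plus strand) for Gp1ba, chr16:30310782-30311031 (minus strand) for Gp5 and chr6:87777820-87778069 (plus strand) for Gp9.
Gp1ba promoter: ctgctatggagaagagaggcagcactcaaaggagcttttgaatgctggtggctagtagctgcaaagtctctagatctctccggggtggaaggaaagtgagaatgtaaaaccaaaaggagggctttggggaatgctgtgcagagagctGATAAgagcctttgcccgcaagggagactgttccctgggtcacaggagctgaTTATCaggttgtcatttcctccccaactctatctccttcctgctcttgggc
Gp5 promoter: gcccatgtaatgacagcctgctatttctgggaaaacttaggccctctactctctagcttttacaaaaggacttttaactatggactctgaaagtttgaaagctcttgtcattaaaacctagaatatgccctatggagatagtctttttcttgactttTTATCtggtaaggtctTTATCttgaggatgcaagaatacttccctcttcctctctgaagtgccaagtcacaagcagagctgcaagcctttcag
Gp9 promoter: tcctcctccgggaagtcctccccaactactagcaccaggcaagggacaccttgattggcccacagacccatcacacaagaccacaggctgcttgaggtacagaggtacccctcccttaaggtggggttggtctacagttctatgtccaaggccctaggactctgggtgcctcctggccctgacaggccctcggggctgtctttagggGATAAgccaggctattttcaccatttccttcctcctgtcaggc
All 9 genes had a promoter in the RefSeq table. GATAA or TTATC was found in 22.6% of 32851 promoters of the same length and in 3 of the 9, with 2 matches each for Gp1ba and Gp5 and 1 for Gp9. The Ets-like letters AGGAAG or their reverse complement CTTCCT were found in 29.5% of all promoters and in 6 of the 9, those of Pf4, Itga2b, Gp1ba, Gp5, Gp9 and Tubb1. These matches describe letters only, and their part in the levels or ratios of the genes was not tested.

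Tubb1 encodes β1-tubulin, the main tubulin of the marginal band that gives platelets their disc shape, and lies at chr2:174450695-174457882 on the plus strand. It had 0 counts and 0 TPM in technical replicate 2, against 146 counts and 6.28 TPM (5.30 to 7.38) in technical replicate 1. At the level of technical replicate 1, technical replicate 2 would have held 8.42 counts under TMM scaling and 20.2 under total count scaling. By the 95% interval, Tubb1 was at least 2.25-fold lower in technical replicate 2 under TMM scaling and at least 5.40-fold lower under total count scaling. Set at 3 counts, or 0.402 TPM, it would be 2.81-fold and 6.73-fold lower under these scalings. Treml1 encodes TLT-1, a receptor of platelet alpha granules that reaches the surface on activation, and lies at chr17:48359916-48367176 on the plus strand. It had 40 counts and 6.12 TPM (4.37 to 8.33) in technical replicate 2, against 60 counts and 2.97 TPM (2.26 to 3.82) in technical replicate 1. It was called higher in technical replicate 2, with a log2 ratio of 3.53 (2.92 to 4.13). Tubb1 had 0 times the TPM of Treml1 in technical replicate 2 and 2.11 times in technical replicate 1. By counts, the upper 95% bound of the ratio of Tubb1 to Treml1 in technical replicate 2 was 0.0419 of the ratio in technical replicate 1.

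In all, 7 of the 9 genes were tested. Pf4, Itga2b, Gp5 and Treml1 were called higher in technical replicate 2, and Ppbp, Gp1ba and Tubb1 were called lower. The 4 higher and 3 lower calls stood beside 28.0% and 32.6% of all tested genes. The split depends on the filter, which Gp1ba and Tubb1, with 0 counts in technical replicate 2, passed through technical replicate 1 alone. Without it the calls were 6 higher and 3 lower, beside 22.3% and 20.2% of the 20488 genes with a count. The median log2 ratio was 2.97 over the 7 genes, beside -0.27 over all tested genes, whose 5th to 95th percentiles ran from -3.67 to 3.75. The ratios of Itga2b, Gp1bb and Gp9 lay beyond that range, with Gp1bb and Gp9 below the count filter. These medians take no account of GC content. The median of 2.97 is the ratio of Gp5, which was 0.60 after subtracting the median of genes of like GC content. The 7 calls had the same direction under total count scaling and under DESeq2 size factors. TMM placed every log2 ratio 1.26 higher than total count scaling did, and the median of all tested genes under total count scaling was -1.53.

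**Figure D3:**
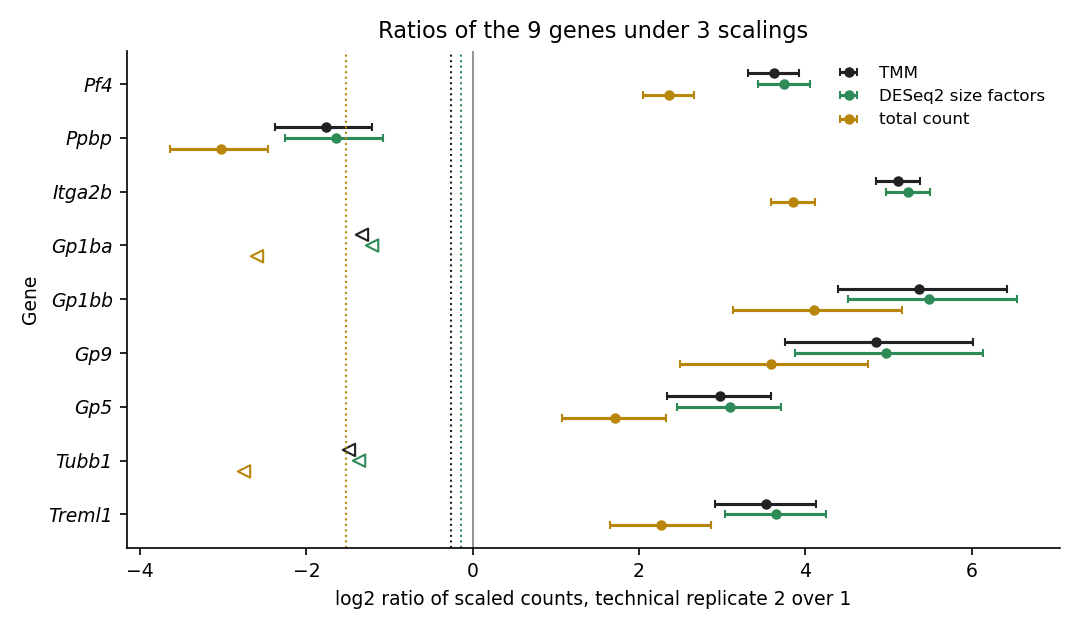
Log2 ratio of scaled counts, technical replicate 2 over technical replicate 1, for the 9 genes with library sizes from TMM, from DESeq2 or from the total count. Shown are exact 95% counting intervals (bars), the ratio at 3 counts for genes with 0 counts (triangles) and the median of all tested genes under each scaling (dotted lines). Itga2b, Pf4, Treml1 and Gp5, with Gp1bb and Gp9 below the count filter, lie above 0 under all 3 scalings, and Ppbp and the triangles for Gp1ba and Tubb1 lie below 0.

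GC content moved with the ratios. Over all tested genes, the median log2 ratio was 2.37 in the tenth with the highest GC content and -1.61 in the tenth with the lowest. The 6 genes of the set with positive ratios had transcript GC contents of 50% to 64.3%, and Ppbp, Tubb1 and Gp1ba had 42.4% to 54.6%. After subtracting the median of the genes of like GC content, the log2 ratio was 3.95 for Pf4, 2.74 for Itga2b and 2.24 for Treml1. These 3 were still called higher. Gp1bb and Gp9, below the count filter, had 3.0 and 2.48 and would also pass the rule. Gp5 had 0.60 and Ppbp had -0.51, and neither was called. Gp1ba and Tubb1, at -1.43 and -2.19 when set at 3 counts and with their bounds treated alike, were still called lower. The share of all tested genes called after this subtraction was not computed, so these calls have no background beside them. The GC content of Gp1bb comes from a later annotation, in which its transcript differs in length from that of the tables.

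**Figure D4:**
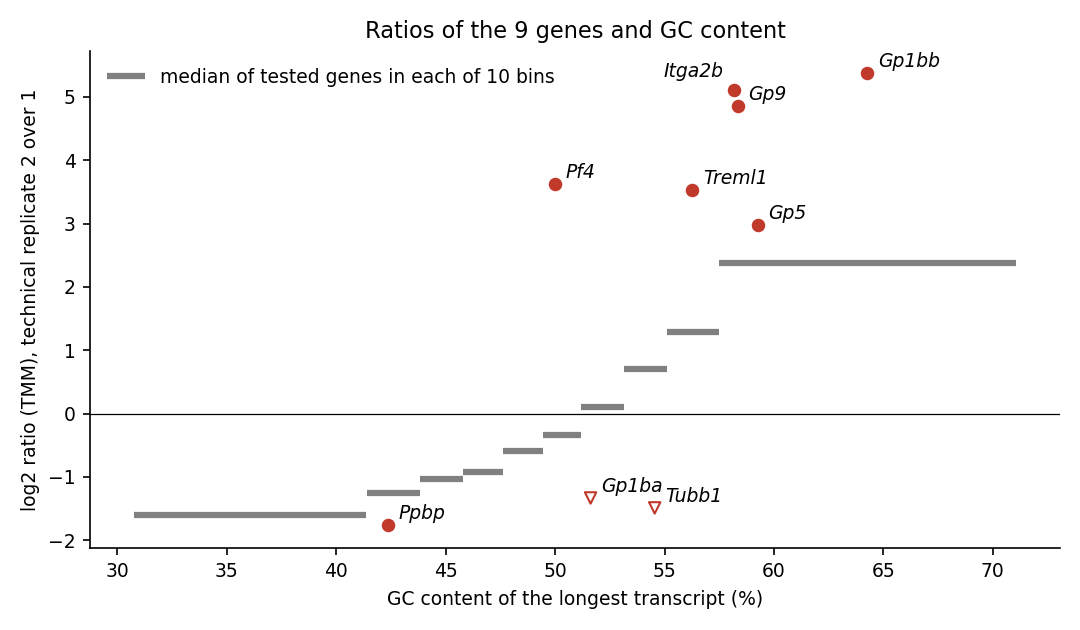
Log2 ratio, technical replicate 2 over technical replicate 1, against transcript GC content in percent for the 9 genes, with the median of all tested genes in 10 bins of GC content (grey bars) and triangles for bounds of genes with 0 counts. Pf4 stands far above the median of genes of like GC content, whereas Ppbp and Gp5 lie near it.

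A wider view came from 59 further genes of platelets and megakaryocytes in 5 lists, of which 53 were tested. Of these, 16 were called higher and 15 lower in technical replicate 2, together 58.5%, beside 60.6% of all tested genes. Their median log2 ratio was -0.22, beside -0.27 over all. The split of calls depended on the scaling, with 6 higher and 32 lower under total count scaling, where 14.6% of all tested genes were called higher and 58.5% lower. As ratios of deposited TPM with a pseudocount of 1, 3 were past 1.5-fold higher and 44 lower, where 89.2% of all tested genes were past 1.5-fold, 8.40% higher and 80.8% lower. The wider platelet genes were called about as often as all tested genes, and their split moved with that of all genes. Vipas39, Cd9, Fcer1g, Rap1b, Rasgrp2 and Fli1, not called under TMM, were called lower under total count scaling.

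Among 11 tested genes of granule cargo and biogenesis, 1 was called higher and 4 lower, with a median of -0.68. Clu, the alpha granule and plasma protein clusterin, had 239.0 TPM in technical replicate 2 and 479.2 TPM in technical replicate 1, with a log2 ratio of scaled counts of 1.84 (called higher). Under total count scaling Clu was not called, at 0.57. Srgn, the proteoglycan serglycin that packs granule contents, had 27.4 TPM in technical replicate 2 and 448.4 TPM in technical replicate 1 and was called lower at -1.35. Thbs1, the adhesive protein thrombospondin-1, had 0.18 TPM in technical replicate 2 and 9.20 TPM in technical replicate 1 and was called lower at -3.26. Vipas39, needed for alpha granule formation, had a log2 ratio of 0.09 and was not called.

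Among 12 tested surface receptors, 5 were called higher and 3 lower, with a median of -0.14. Tbxa2r, the thromboxane A2 receptor, had 5.12 TPM in technical replicate 2 and 2.23 TPM in technical replicate 1 and was called higher at 3.67. P2ry12, the ADP receptor, had 0.52 TPM in technical replicate 2 and 22.2 TPM in technical replicate 1 and was called lower at -3.0. Itga6, the laminin receptor chain, had 2.35 TPM in technical replicate 2 and 61.1 TPM in technical replicate 1 and was called lower at -2.82. Cd9, a tetraspanin, and Fcer1g, the signalling chain of the collagen receptor, had log2 ratios of -0.91 and -0.72 and were not called.

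Among 11 tested signalling proteins and enzymes, 2 were called higher and 4 lower, with a median of -0.96. Fermt3, the kindlin that activates platelet integrins, had 21.7 TPM in technical replicate 2 and 26.6 TPM in technical replicate 1 and was called higher at 2.15. Bin2, a membrane-bending protein, had 0.67 TPM in technical replicate 2 and 69.8 TPM in technical replicate 1 and was called lower at -3.64. Fyb, an adaptor of integrin activation, was called lower at -1.54, and Rap1b and Rasgrp2, a small GTPase and its exchange factor, were not called at 0.27 and -0.22.

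Among 9 tested genes of the cytoskeleton and of proplatelets, 4 were called higher and 2 lower, with a median of 0.07. Tuba4a, an α-tubulin of platelets, had 65.4 TPM in technical replicate 2 and 58.8 TPM in technical replicate 1 and was called higher at 2.85, in the direction opposite to Tubb1. Tpm4, a tropomyosin, had 8.02 TPM in technical replicate 2 and 373.3 TPM in technical replicate 1 and was called lower at -3.11. Myh9, the heavy chain of non-muscle myosin IIA, was called lower at -2.33, and Flna, the filamin that anchors the glycoprotein Ib complex to actin, was called higher at 0.79. Flna had 50.5 TPM in technical replicate 2 and 325.1 TPM in technical replicate 1, and under total count scaling it was not called, at -0.47.

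Among 10 tested transcription factors of megakaryocytes, 4 were called higher and 2 lower, with a median of 0.49. Gfi1b, a transcriptional repressor needed for erythroid and megakaryocyte development, had 3.96 TPM in technical replicate 2 and 1.39 TPM in technical replicate 1 and was called higher at 4.16. Nfe2, which is needed for platelet shedding, had 7.85 TPM in technical replicate 2 and 21.8 TPM in technical replicate 1 and was called higher at 1.6. Under total count scaling Nfe2 was not called, at 0.34. Etv6 had 0.41 TPM in technical replicate 2 and 25 TPM in technical replicate 1 and was called lower at -3.50. Fli1, an Ets factor, had a log2 ratio of -0.51 and was not called. Gfi1b and Nfe2 are also expressed in erythroid cells. The erythroid list was 8 higher and 1 lower of 10 tested, beside 28.0% and 32.6% of all tested genes. The part of erythroid cells in the ratios of these factors was not tested.

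**Figure D5:**
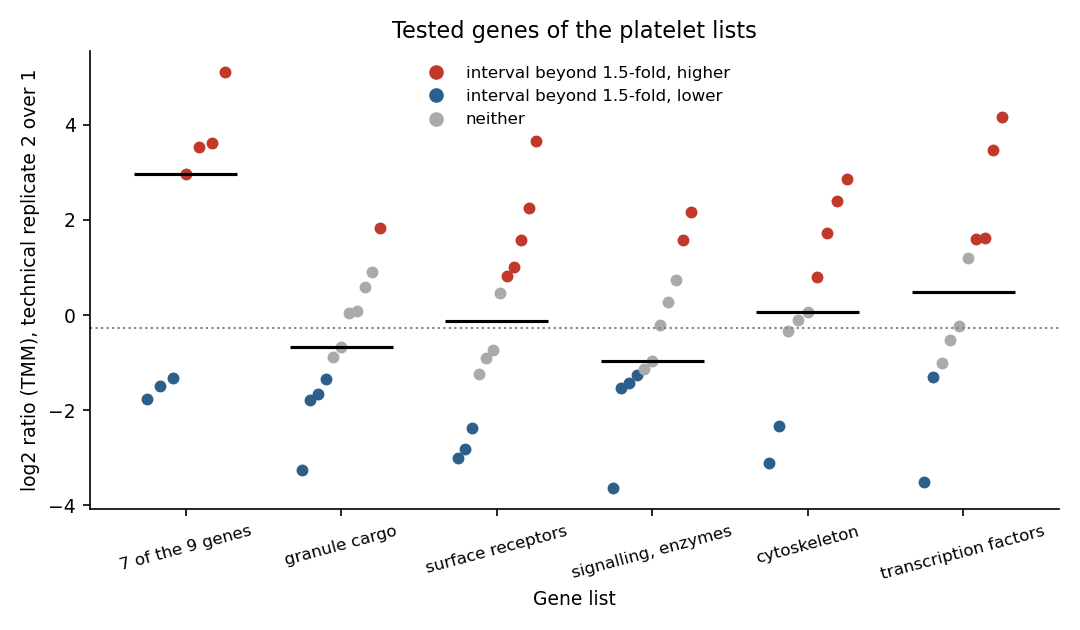
Log2 ratio, technical replicate 2 over technical replicate 1, of each tested gene of the set and of the 5 related lists, with the median of each list (solid line) and of all tested genes (dotted line, -0.27). The related lists have medians from -0.96 to 0.49, and the 7 tested genes of the set have values on both sides with a median of 2.97. The ratios take no account of GC content.

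Markers of other cell types that share some of these genes or their precursors were also measured. The erythroid list, whose cells come from the same precursor as megakaryocytes, had its highest genes in Hba-a2 and Hba-a1, both called higher. Hba-a2 had 217252 TPM in technical replicate 2 and 3077 TPM in technical replicate 1, values that are uncertain because Hba-a1 is a near-identical copy. Of 5 mast cell and basophil genes, Cpa3, Mcpt8 and Ms4a2 had no counts in technical replicate 2, and the list summed to 1.97 TPM there and 29.2 TPM in technical replicate 1. Kit, which is also on the progenitor list, had 0.34 TPM in technical replicate 2 and 21.8 TPM in technical replicate 1, and Cma1 had 1.63 TPM in technical replicate 2 and 3.37 TPM in technical replicate 1. The 5 genes of blood progenitors, with Flt3 and Cd34 highest by mean TPM, summed to 23.3 TPM in technical replicate 2 and 95.4 TPM in technical replicate 1, with 1 called higher and 1 lower and all above 0 in both. The 8 endothelial genes, with Pecam1 and Stab2 highest by mean TPM, summed to 67.8 TPM in technical replicate 2 and 225.4 TPM in technical replicate 1, with 2 called higher, 1 lower and none at 0. The 7 red pulp macrophage genes summed to 822.2 TPM in technical replicate 2 and 853.2 TPM in technical replicate 1, with 3 called higher and 1 lower. Of these, C1qa was called higher, Adgre1 was called lower and Vcam1, with C1qa the highest by mean TPM of both libraries, was not called. In lymphoid and myeloid lists, the 4 B cell genes, with Cd79b and Cd79a highest by mean TPM, summed to 1106 TPM in technical replicate 2 and 2274 TPM in technical replicate 1, with 2 called higher and 2 lower. The 4 T cell genes, with Cd3g and Cd3d highest by mean TPM, summed to 77.3 TPM in technical replicate 2 and 335.0 TPM in technical replicate 1, with 0 called higher and 1 lower. The 5 neutrophil genes, with S100a8 and S100a9 highest by mean TPM, summed to 190.7 TPM in technical replicate 2 and 925.4 TPM in technical replicate 1. Under TMM scaling, Camp and Ltf were called higher and none of the 5 lower. Under total count scaling, Camp and Ltf were again called higher, but S100a8 and S100a9 were called lower, at -2.10 and -1.18. The TMM calls in the lists of all these cell types stand beside 28.0% higher and 32.6% lower among all tested genes. Under total count scaling the shares of all tested genes were 14.6% and 58.5%. The part of these cells in the levels of the 9 genes was not tested.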

How the data were processed

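Gene and transcript quantifications of polyadenylated RNA came from 2 libraries of 1 mouse spleen. Per the file headers and an accompanying deposited text, reads were aligned to the transcriptome of mm10 with GENCODE M4, and the aligner and quantifier are not given in the sources used here. The authors deposited an expected count per gene and transcript (reads shared between transcripts are divided by a model), lengths in bases, TPM with posterior means, and isoform shares in percent.

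Expected counts were rounded. Of 69691 rows, 26345 without an Ensembl identifier were left out; they held 2.10e-04% of counts in technical replicate 2 and 1.09e-05% in technical replicate 1. Identifiers were matched to symbols for 42462 genes. Tested genes (12467) had a mean TPM of 1 or more and a summed count of 50 or more, scaled with TMM (edgeR 4.0.16), with exact Clopper-Pearson 95% intervals conditional on the total count. Where no count was seen, 3 counts served as the limit. Intervals of TPM came from exact Poisson intervals of the counts. No p-value was computed.

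GC content was taken from GENCODE M21 transcripts of the same assembly, for 99.8% of tested genes. Alternatives were total count and DESeq2 1.42.0 scaling, deposited TPM ratios, other thresholds, no filter, GC bins and coding transcripts only. Besides the 9 genes, the text names from each related list the 3 genes of highest mean TPM and the called genes with the highest and lowest ratio, from each marker list the 2 of highest mean TPM, and overlapping genes. Itgb3, Adgre1, Camp, Ltf and the marker genes at 0 were named after their values were seen. The 9 genes and all lists were chosen with earlier results of these data known.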

Additional observations from a re-analysis of the deposited data

How the results depend on the processing

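Of 50 recomputed log2 ratios of the 7 tested genes, 46 kept their direction and their call, 4 kept the direction but lost the call and 0 reversed. The 15 of Gp1bb and Gp9, which were below the count filter, kept their direction. The 4 were Gp5 at 0.36 as a ratio of TPM and 0.60 against genes of like GC content, Ppbp at -0.51 against genes of like GC content, and Gp1ba with a 99% interval. Not every recomputed ratio could reverse, because a higher fold threshold and the 99% interval leave the ratio itself unchanged. Coding transcripts only changed the ratio of Itga2b alone, and the gene that overlaps Itga2b had no counts to add. The counts of higher and lower genes in the related lists moved from 16 and 15 to 6 and 32 under total count scaling, where 14.6% and 58.5% of all tested genes were called. They moved to 3 and 44 as ratios of deposited TPM with a pseudocount of 1, where 8.40% and 80.8% of all tested genes were past 1.5-fold. The summed TPM of the 9 genes was 319.6 in technical replicate 2 and 160.4 in technical replicate 1 when globin and mitochondrially encoded genes were left out of the total. It was 96.5 in technical replicate 2 and 135.9 in technical replicate 1 with every Itga2b count on the full-length transcript, an alternative chosen after seeing the data. With coding transcripts only, 0 genes of the set changed their dominant transcript, in place of 1. For Itga2b this outcome was fixed in advance, because Itga2b-201 is its only coding transcript. Depth limits technical replicate 2 most, where 3 counts are 0.208 TPM for Gp1ba and 0.402 TPM for Tubb1. Leaving out a library was not possible with 1 on each side. No paired analysis was possible because each side holds 1 library.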
